A study of Mus musculus with 2 samples.

Results

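Growth factor receptors and insulin-like growth factor (IGF) binding proteins were followed in single mouse fibroblasts sorted by the brightness of a circadian clock reporter. The genes were chosen by name, as rows of the deposited count table: the receptors Pdgfra, Pdgfrb, Fgfr1, Egfr, Igf1r and Igf2r, and the binding proteins Igfbp4, Igfbp6 and Igfbp7. They are 9 of the 10 genes that the choice named and 9 of 33755 gene features in the table; the remaining binding protein was not analysed here. The cells were NIH3T3-Rev-VNP1-H2B-iRFP, a derivative of the mouse fibroblast line NIH3T3 that carries the fluorescent protein Venus as its Nr1d1 reporter and the near-infrared protein iRFP on histone H2B; Nr1d1 encodes Rev-erb alpha, which represses clock genes. All cells carried both reporters, grew in medium with 10% serum to 95% confluency, about 5 days after seeding, and received no synchronizing treatment. The 2 samples were plates of 384 wells with 1 cell a well: plate 1 held the high and plate 2 the low H2B-iRFP sort, so the sort and the plate cannot be told apart. On each plate 96 cells came from each of 4 Venus gates, called bin 1 (dimmest) to bin 4 (brightest), and since a bin always took the same 6 columns of wells, bin and well position cannot be told apart either. Nothing in the labels says that the plates came from separate cultures, so the p-values reflect only how far differences among bins varied between these plates.

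Receptor tyrosine kinases such as the PDGF, FGF, EGF and IGF-1 receptors bind ligands outside the cell and signal through Ras and MAP kinases and through PI3 kinase and Akt. Igf2r, the cation-independent mannose 6-phosphate receptor, has no kinase; it carries IGF-II and lysosomal enzymes into the cell. Igfbp4 and Igfbp6 bind IGFs and limit their access to the receptor, Igfbp6 with a preference for IGF-II, while Igfbp7 is a related secreted protein with low affinity for IGFs. In fibroblasts, serum and insulin-like signals act through these receptors and can reset the circadian clock.

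After filtering, 762 cells remained, 383 on plate 1 and 379 on plate 2, with 151173 to 1618022 counts each. Their counts were summed by plate and bin into 8 sums of 76042157 to 86612194 counts, which were the units of every test. Nr1d1 followed the sort, from 63.6 to 1253 CPM (a gene's counts relative to all counts of the sum) between bins 1 and 4 on plate 1 and from 67.5 to 1124 CPM on plate 2, and the iRFP transcript was at 40.8 CPM on plate 1 and 18.4 CPM on plate 2. All 9 fibroblast markers checked, the members Pdgfra and Pdgfrb among them, were above 1 CPM, at 74.8 to 8556 CPM on plate 1. The 4 endothelial, 4 immune and 3 adipocyte markers checked were all below 1 CPM. Of the 6 smooth muscle and pericyte markers, Cspg4 (81.4 CPM on plate 1, in 99.5% of cells) and Des (2.92 CPM, 31.2%) were above 1 CPM. Of the 5 epithelial markers, Krt14 (36.6 CPM on plate 1, in 72.7% of cells) and Cdh1 (4.15 CPM, 43.4%) were above it. The others of both lists, Myh11, Cnn1, Epcam and Krt18 among them, were each below 1 CPM. The median summed level of G2/M phase genes was 833, 834, 833 and 976 CPM in bins 1 to 4 of plate 1 and 874, 874, 895 and 996 CPM in those of plate 2, highest in bin 4 on both. Between bins 1 and 4 the median number of genes detected a cell rose from 10933 to 11300 and from 10867 to 11315.

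The members differed widely in level. Scaled also by exon length (TPM, mean over the 8 sums), Igfbp6 stood highest at 1084, with a range over the sums of 954 to 1241. Igfbp7 followed at 313 (260 to 414) and Fgfr1 at 204 (167 to 264), and their ranges overlapped slightly with each other but not with those of the genes above or below. Igfbp4 was at 66.0 TPM (37.6 to 113), Pdgfrb at 44.96 (33.5 to 56.9) and Pdgfra at 29.8 (24.3 to 36.5), and the neighbours in this order overlapped. Igf1r was at 13.6 TPM (12.5 to 15.3), Egfr at 3.16 (2.48 to 4.39) and Igf2r at 0.384 (0.162 to 0.649), each below the range of the gene before it. Fgfr1 was therefore the most abundant of the 6 receptors per length, and Igf2r the least.

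**Figure D1:**
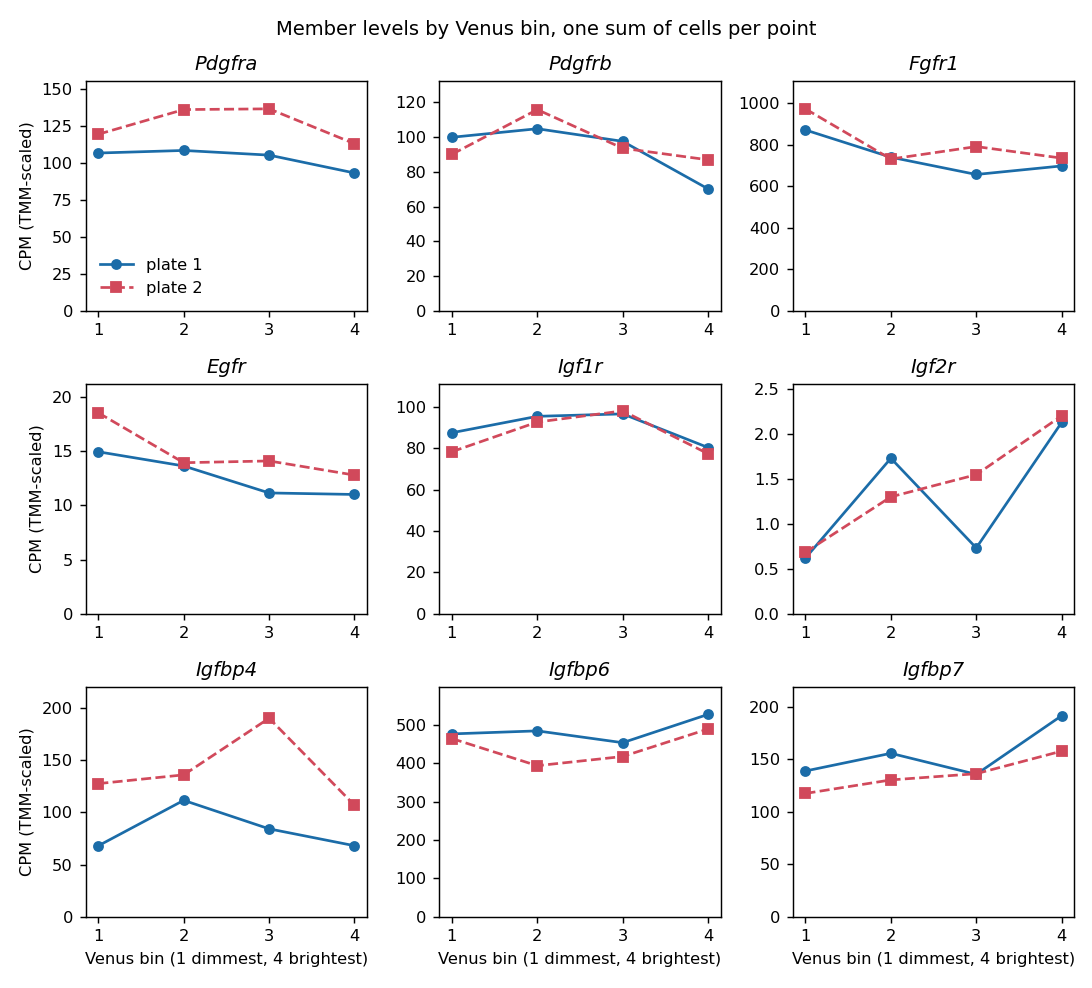
Level of each gene in CPM (y axis, linear, from 0) in each Venus bin (x axis) on plate 1 (circles, solid) and plate 2 (squares, dashed); each point is 1 sum of 94 to 96 cells and carries no error bar. Fgfr1 and Egfr were highest in bin 1 on both plates, Igf2r and Igfbp7 were highest in bin 4 on both, and Igfbp4 was lower on plate 1 in every bin.

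The first comparison asked which members followed the clock reporter. Fgfr1 and Egfr fell toward the bright bins, Igf2r and Igfbp7 rose, and the other 5 members did not pass the test of a linear trend. These 4 calls among 9 members stand beside 15.4% of all 18430 genes tested, and beside 25.4% of the genes that averaged a log2 CPM of 3 or more, a level that 8 of the 9 members exceed. By direction, 8.64% of all genes were called lower toward the bright bins and 6.78% higher. The median trend of the 9 members was -0.04 log2 per bin, against 0.00 over all genes tested. The changes were small beside that of Nr1d1, whose trend was 1.38 ± 0.02 log2 per bin (SE).

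Fgfr1 (ENSMUSG00000031565.20, chromosome 8), the FGF receptor that predominates in fibroblasts, measured 871, 740, 656 and 698 CPM in bins 1 to 4 of plate 1 and 973, 731, 791 and 735 CPM in those of plate 2. Bin 1 was the highest on both plates and bins 2 to 4 overlapped once each plate was set to its own mean, and at the first step the level fell by 15.1% on plate 1 and fell by 24.8% on plate 2. The linear trend was -0.11 ± 0.02 log2 per bin (SE, 2 plates), with the same value on each plate alone (-0.11 and -0.11) and an adjusted p of 0.0133 (edgeR quasi-likelihood, Benjamini-Hochberg over all genes). The test of any difference among the bins gave an adjusted p of 0.0310. Without bin 1 the trend was -0.02 with an adjusted p of 0.799.

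Egfr (ENSMUSG00000020122.17, chromosome 11), the EGF receptor, measured 14.9, 13.6, 11.1 and 11.01 CPM in bins 1 to 4 of plate 1 and 18.5, 13.9, 14.1 and 12.8 CPM in those of plate 2. Both plates were highest in bin 1 and lowest in bin 4. From bin 1 to bin 4 the level fell by 26.4% on plate 1 and fell by 31.0% on plate 2. Medians over cells did not keep this order: they were 7.71, 10.3, 8.18 and 7.78 CPM on plate 1, with bin 1 lowest. Those of plate 2 were 13.9, 7.79, 10.8 and 10.0 CPM, with bin 1 highest. The 3 cells with the most counts held 19.3% of the Egfr counts in bin 1 of plate 1 and 13.3% in that of plate 2. The trend was -0.16 ± 0.04 log2 per bin (SE), at -0.16 on each plate alone, with an adjusted p of 0.0223.

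Igfbp7 (ENSMUSG00000036256.14, chromosome 5) measured 139, 156, 136 and 191 CPM in bins 1 to 4 of plate 1 and 117, 130, 136 and 158 CPM in those of plate 2. Bin 4 stood above the other bins on both plates, while bins 1 to 3 overlapped between neighbours once each plate was set to its own mean. Bin 4 exceeded bin 1 by 37.9% on plate 1 and 34.3% on plate 2. The trend was 0.13 ± 0.02 log2 per bin (SE), at 0.12 and 0.13 on the plates alone, with an adjusted p of 0.0138, and the bins differed with an adjusted p of 0.0360.

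Igf2r (ENSMUSG00000023830.15, chromosome 17) rested on few counts: 45, 141, 60 and 164 counts in bins 1 to 4 of plate 1 and 55, 101, 135 and 181 counts in those of plate 2. As levels these were 0.618, 1.73, 0.730 and 2.12 CPM on plate 1 and 0.683, 1.30, 1.54 and 2.20 CPM on plate 2. Bin 1 was the lowest and bin 4 the highest on both plates, with bin 4 at 3.44 times bin 1 on plate 1 and 3.22 times on plate 2, and the inner bins stood in opposite orders. The trend was 0.47 ± 0.11 log2 per bin (SE), at 0.40 and 0.52 on the plates alone, with an adjusted p of 0.0289. In each of the 8 sums the 3 cells with the most counts held between 29.3% and 48.9% of all Igf2r counts, and 163 of the 762 cells had any count.

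Among the 5 members without a called trend, the inner bins stood highest for several. Igf1r (ENSMUSG00000005533.11, chromosome 7), the receptor for IGF-I, measured 87.5, 95.4, 96.6 and 80.3 CPM in bins 1 to 4 of plate 1 and 78.3, 92.6, 98.0 and 77.3 CPM in those of plate 2. The middle bins were above the outer bins on both plates, by ratios of 1.14 and 1.23. Its trend was -0.02 ± 0.02 log2 per bin (SE, adjusted p = 0.642), while the test of any difference among the bins gave an adjusted p of 0.0464. Igf1r, Fgfr1 and Igfbp7 were the 3 of 9 members that passed this second test, beside 8.37% of all genes. Igf1r did not pass it with library totals in place of TMM scaling, with a stricter cell filter, without the cycling cells or without the plate term.

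Pdgfrb (ENSMUSG00000024620.13, chromosome 18), the PDGF receptor beta chain, measured 99.9, 105, 97.6 and 70.2 CPM in bins 1 to 4 of plate 1 and 90.1, 116, 93.6 and 86.9 CPM in those of plate 2. Bin 4 was the lowest and bin 2 the highest on both plates, but between bins 1 and 4 the level fell by 29.8% on plate 1 and fell by 3.53% on plate 2. Its trend of -0.10 ± 0.03 log2 per bin (SE) had an adjusted p of 0.0745. It was called under 5 of 11 alternatives, among them DESeq2 (adjusted p = 0.0116) and the fit without the cycling cells (0.0328), and not with library totals (0.117), without the plate term (0.103) or with a linear bin score (0.233).

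Pdgfra (ENSMUSG00000029231.16, chromosome 5), the PDGF receptor alpha chain, measured 107, 108, 105 and 93.1 CPM on plate 1 and 119, 136, 137 and 113 CPM on plate 2. Bin 4 was the lowest on both plates. The trend was -0.04 ± 0.02 log2 per bin (SE, adjusted p = 0.1997).

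Igfbp6 (ENSMUSG00000023046.7, chromosome 15) measured 477, 485, 454 and 528 CPM on plate 1 and 465, 394, 418 and 490 CPM on plate 2. Bin 4 was the highest on both plates and the other bins overlapped between neighbours, with a trend of 0.03 ± 0.02 log2 per bin (SE, adjusted p = 0.342). Igfbp4 (ENSMUSG00000017493.13, chromosome 11) was higher in both inner bins than in both outer bins on each plate, by ratios of 1.44 and 1.39, the largest among the members. Its trend was -0.04 ± 0.06 log2 per bin (SE, adjusted p = 0.737), and the test of any difference among the bins gave an adjusted p of 0.123. Of the 9 members, 8 had the same sign of trend on both plates, as did 69.5% of all genes tested.

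**Figure D2:**
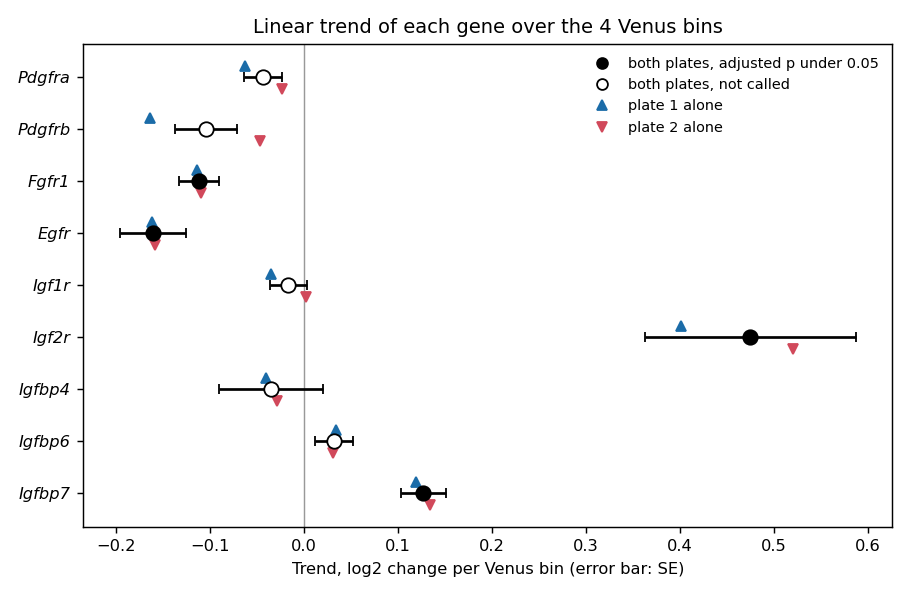
Linear trend of each gene over the 4 Venus bins in log2 change per bin (x axis) with its SE (bar); filled circles had an adjusted p under 0.05, and triangles give each plate alone. Fgfr1 and Egfr lie below 0 and Igf2r and Igfbp7 above it on both plates. Igf1r lies closest to 0, and its sign is positive with library totals in place of TMM scaling.

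Without bin 1, a fit of fewer sums that called 1139 genes in place of 2843, none of the 4 was called: Igfbp7 stood at 0.14 log2 per bin (adjusted p = 0.0852), Egfr at -0.11 (0.323), Igf2r at 0.25 (0.456) and Fgfr1 at -0.02 (0.799). Without bin 4, where 358 genes were called, Fgfr1 stood at -0.17 (adjusted p = 0.0592), Egfr at -0.20 (0.124), Igf2r at 0.39 (0.342) and Igfbp7 at 0.05 (0.575). The trends of Fgfr1 and Igfbp7 were thus smaller without one outer bin and larger without the other. Without the plate term Igf2r was called, and Fgfr1, Egfr and Igfbp7 kept their trends of -0.11, -0.16 and 0.13 with larger SEs and adjusted p of 0.0540, 0.0808 and 0.0829. With the cycling cells left out, the top 25% of each plate by summed S and G2/M phase levels, Fgfr1 and Igfbp7 remained called; Egfr stood at -0.14 ± 0.04 log2 per bin (SE, adjusted p = 0.0710), close to its value with all cells, and Igf2r at 0.27 ± 0.12 (adjusted p = 0.2002), a smaller trend.

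The starts of the called genes were read for known clock elements. The 250 bases before the RefSeq start were available for 7 of the 9 members, all but Pdgfrb and Fgfr1, in build GRCm38.p6, which is not the build named for the counts. They were searched on both strands for the E-box CACGTG, through which the clock's activators act, for the D-box (TTATGTAA or TTACGTAA) bound by Dbp and Tef, and for the core AGGTCA of the element bound by Rev-erb and Ror proteins. Over all 32851 promoters of this length the shares with a match were 6.02%, 0.931% and 14.0%. The 3 sequences shown are those of the called members with an entry, to set the gene that rose most per bin beside the other two, with matches in capitals; motifs and sequences were chosen after the calls and matches had been seen, and a search for GC and TATA boxes was dropped.

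Igf2r, chr17:12769707-12769956, minus strand: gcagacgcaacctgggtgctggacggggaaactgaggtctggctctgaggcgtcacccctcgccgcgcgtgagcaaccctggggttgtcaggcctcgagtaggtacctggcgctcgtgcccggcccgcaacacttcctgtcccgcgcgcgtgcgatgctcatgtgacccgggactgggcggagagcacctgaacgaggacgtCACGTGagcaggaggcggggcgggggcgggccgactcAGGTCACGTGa

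Igfbp7, chr5:77408046-77408295, minus strand: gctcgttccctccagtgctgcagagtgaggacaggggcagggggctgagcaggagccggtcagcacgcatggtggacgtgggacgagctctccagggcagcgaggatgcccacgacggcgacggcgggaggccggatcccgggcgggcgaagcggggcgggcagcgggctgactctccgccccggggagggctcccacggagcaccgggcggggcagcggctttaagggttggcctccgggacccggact

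Egfr, chr11:16751953-16752202, plus strand: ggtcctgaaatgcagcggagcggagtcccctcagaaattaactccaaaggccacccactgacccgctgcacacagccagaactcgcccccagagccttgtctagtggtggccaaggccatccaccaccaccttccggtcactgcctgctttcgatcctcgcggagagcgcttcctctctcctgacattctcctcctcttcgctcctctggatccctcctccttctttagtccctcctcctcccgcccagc

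The Igf2r stretch held 2 E-boxes, beginning 48 and 7 bases before the start, and an AGGTCA beginning 11 bases before it that overlaps the nearer E-box. At least 2 E-boxes were found in 0.429% of all promoters. The Igfbp7 and Egfr stretches held none of the 3 motifs, nor did those of Pdgfra, Igfbp4 and Igfbp6, and that of Igf1r held 1 AGGTCA, 86 bases before the start. A match describes letters in this window and was not tested as a site.

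Other genes of the pathways were read from the same fit. Of 16 other receptors tested, 5 fell toward the bright bins and 1 rose, a share called of 37.5%, with a median trend of -0.02 log2 per bin. Fgfrl1, an FGF receptor relative without a kinase domain, fell by 0.21 log2 per bin (adjusted p = 0.0146) and Tgfbr1, the type I TGF-beta receptor, by 0.17 (adjusted p = 0.00993). The collagen receptor Ddr2 and the endocytic receptor Lrp1 fell by 0.10 and 0.11 log2 per bin. Fgfr2 was the receptor that rose and Erbb3 the other that fell; both were named after their values had been seen.

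Of 18 ligands tested, 3 rose and 2 fell, a share called of 27.8%. It stands beside 15.4% of all genes and 25.4% of genes at the higher level. Pdgfc, a ligand of PDGF receptor alpha, rose by 0.13 ± 0.03 log2 per bin (SE, adjusted p = 0.0450), and Fgf7, a ligand of an FGF receptor 2 isoform, rose from 62.6 to 84.2 CPM between bins 1 and 4 on plate 1 and from 71.1 to 92.4 CPM on plate 2. Tgfb3 fell by 0.17 and Csf1 by 0.12 log2 per bin. Tgfb2 was the other that rose, named after its value had been seen.

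Inside the cell, Irs1, the adaptor that carries the signal of the insulin and IGF-1 receptors to PI3 kinase, measured 116, 109, 112 and 81.3 CPM in bins 1 to 4 of plate 1 and 111, 116, 97.9 and 79.6 CPM in those of plate 2. Bin 4 was lowest on both plates, and the trend was -0.16 ± 0.02 log2 per bin (SE, adjusted p = 0.00560). Irs1 and Pappa2, a protease of IGF-binding proteins named after its value had been seen, were the 2 of 13 other IGF axis genes that were called, both lower, a share of 15.4%. With library totals in place of TMM scaling 2 of the 13 rose and 1 fell.

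Of 38 adaptors and kinases, 8 fell and 1 rose, a share of 23.7%. Gab2, Pik3r1 (a regulatory subunit of PI3 kinase) and Plcg1 fell by 0.17, 0.13 and 0.11 log2 per bin. The one that rose was Hras, named after its value had been seen. With library totals the split was 7 lower and 4 higher, and without the plate term 3 lower and 1 higher.

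Of 24 feedback inhibitors, 5 fell and none rose, a share of 20.8% that lies between the 15.4% of all genes and the 25.4% of genes at the higher level, with a median trend of -0.05 log2 per bin. Il17rd, a membrane inhibitor of FGF signalling, measured 11.9, 10.9, 9.53 and 6.26 CPM in bins 1 to 4 of plate 1 and 11.9, 9.06, 8.25 and 5.96 CPM in those of plate 2. It declined at each step on both plates, with a trend of -0.31 ± 0.04 log2 per bin (SE, adjusted p = 0.00342). Lrig2, Pik3ip1 and Rasa1 fell by 0.18, 0.17 and 0.14 log2 per bin, and Socs2, named after its value had been seen, was the fifth.

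Of 42 S phase genes 12 rose and none fell, a share called of 28.6%. Of 52 G2/M genes 7 rose and 1, Cks1b, fell, a share of 15.4%. Over all genes the share was 15.4%, and over genes at the higher level 25.4%. With a linear bin score, and also without bin 4, 0 G2/M genes rose and 1 fell. Without the cycling cells, 12.2% of all genes were called. In that fit 3 of 16 other receptors fell and 0 rose. Of 38 adaptors and kinases 5 fell and 2 rose, and of 24 feedback inhibitors 2 fell and 0 rose.

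Plate 1 and plate 2, which carried the high and the low H2B-iRFP sort, were compared with 1 sample a side and no test. Igfbp4 was the 1 of 9 members past a fold of 1.5. It measured 81.7 CPM on plate 1 (exact Poisson 95% interval 80.8 to 82.7) and 144 CPM on plate 2 (143 to 145), a ratio of plate 1 to plate 2 of 0.568 (exact binomial 95% interval 0.560 to 0.577); such intervals cover counting error only. Past that fold were 9.97% of all genes tested and 0.52% of the genes of at least 8 CPM, and 0.133% of the latter had a ratio as far from 1 as Igfbp4. By bin it measured 68.0, 111, 84.2 and 68.0 CPM on plate 1 and 127, 136, 190 and 107 CPM on plate 2, lower on plate 1 in each bin.

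The same order held in the medians over cells. Igfbp4 medians were 18.1, 50.1, 42.9 and 33.0 CPM a cell in bins 1 to 4 of plate 1 and 35.8, 71.6, 86.2 and 40.1 CPM in those of plate 2. Plate 2 was the higher in every bin. The plates also differed in the median mitochondrial share, 9.27% and 7.42%, whose part in the difference was not tested. Without the cycling cells the log2 ratio was -0.76, against -0.82 with them.

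The other members differed less between the plates. Pdgfra was at 101 CPM on plate 1 and 129 CPM on plate 2, and Egfr at 12.4 and 15.1 CPM, each lower on plate 1 in all 4 bins. Fgfr1 stood at 722 and 824 CPM, lower on plate 1 in all bins but 1. Igf1r was at 88.2 and 88.5 CPM, a ratio of 0.997 (exact binomial 95% interval 0.980 to 1.01). Values by plate use library totals without TMM, where the median log2 ratio of all genes tested was -0.06. In the TMM-scaled bins Igf1r was higher on plate 1 in 3 of 4, so its equality depends on the scaling. Igfbp6, at 475 and 451 CPM, was higher on plate 1 in all 4 bins, and Igfbp7 stood at 152 and 138 CPM.

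Detection over single cells differed between the members. Fgfr1, Igf1r and Igfbp6 had counts in 100% of cells on both plates. Pdgfra, Pdgfrb and Igfbp7 were detected in 98.4% to 99.7% of cells of a plate, and Igfbp4 in 90.6% on plate 1 and 92.6% on plate 2. Egfr had a count in 76.0% (exact binomial 95% interval 71.4 to 80.2) of plate 1 cells and 79.9% (75.6 to 83.9) of plate 2 cells, or 63.2% and 72.1% after each cell was thinned to 200000 counts. Igf2r was detected in 19.3% (15.5 to 23.6) and 23.5% (19.3 to 28.1), or 11.5% and 14.1% after thinning.

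Among the members, Igfbp4 varied most from cell to cell relative to genes of like level. Its coefficient of variation, SD over mean of CPM within a plate and bin, averaged 1.57, where 1332 genes within 0.5 log2 of its mean level had a median of 0.385, and 99.5% of them varied less. On plate 2 the 10th, 50th and 90th percentiles over cells were 1.88, 51.6 and 429 CPM and the highest cell had 1590 CPM. Pdgfra varied at 0.819, above 97.2% of 1317 genes of like level, and its cells ran from 18.4 to 207 CPM between the 10th and 90th percentiles on plate 1. Igf1r varied at 0.424, above 54.5% of its like-level genes and near their median of 0.413. These comparisons were chosen after the values had been seen and are a description of the cells.

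**Figure D3:**
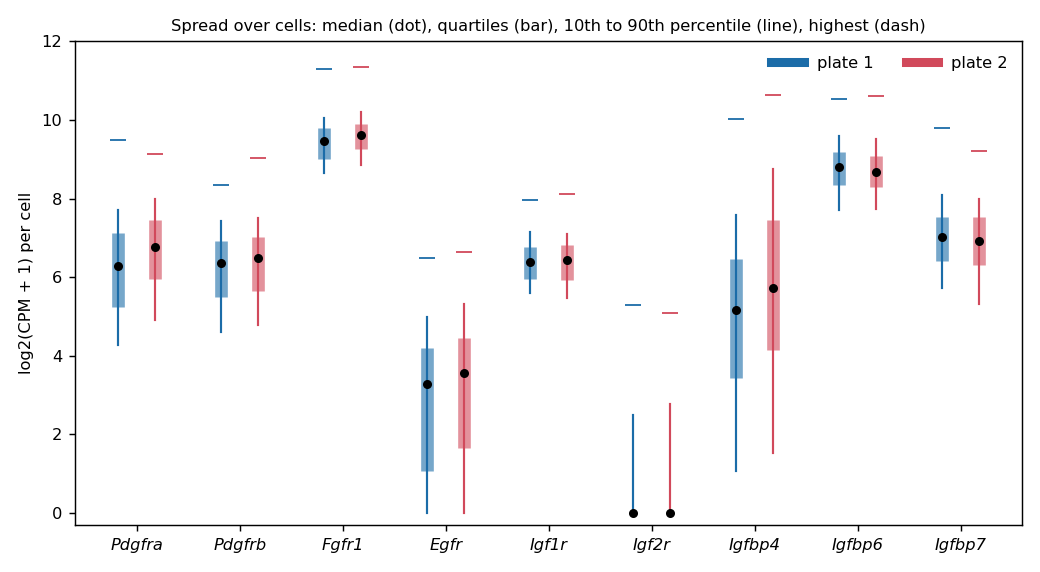
Spread of each gene over cells as log2(CPM + 1) (y axis), with plate 1 and plate 2 side by side: dot, median; thick bar, quartiles; line, 10th to 90th percentile; dash, highest cell. Igfbp4 spans the widest range among genes with a median above 0, from 1.88 to 429 CPM between the 10th and 90th percentiles on plate 2, and the Igf2r median is 0 on both plates.

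Across cells, receptors were compared with each other within each of the 8 sets of 1 plate and 1 bin, so that differences between plates or bins did not enter, with Spearman's rho averaged over the sets. Cells of a set share a plate and a gate but differ in depth, and rho is given as a description without a p. Pdgfra correlated with Fgfr1 at 0.39 (range over sets 0.11 to 0.58), with Pdgfrb at 0.39 (0.27 to 0.56) and with Egfr at 0.25 (0.10 to 0.34), positive in all 8 sets for each. In each set the 24 cells with the least Pdgfra were set beside the 24 with the most: the median of Fgfr1 averaged 597 CPM in the former and 852 CPM in the latter, and that of Pdgfrb 58.4 and 118 CPM. Both were higher in the cells with the most Pdgfra in all 8 sets. These were the pairs with the highest rho among the members. The split reuses the cells and values behind rho, so it restates rho in CPM and is no further support.

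Igfbp6 ran against the PDGF receptors. Its rho was -0.39 with Pdgfra (range -0.58 to -0.30) and -0.35 with Pdgfrb (-0.55 to -0.21), negative in all 8 sets, and -0.01 with Fgfr1. In the 24 cells with the least Pdgfra the median of Igfbp6 averaged 514 CPM, and in the 24 with the most 312 CPM. The former was higher in 8 of 8 sets, which again restates rho in CPM for a pair at the end of the order. Of the 36 pairs of members, 7 were positive in all 8 sets and these 2 were negative in all 8, and the median over pairs was 0.01. The share of such pairs among other genes was not taken, so these counts are not read further. Without the cycling cells Pdgfra and Igfbp6 stood at -0.45.

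**Figure D4:**
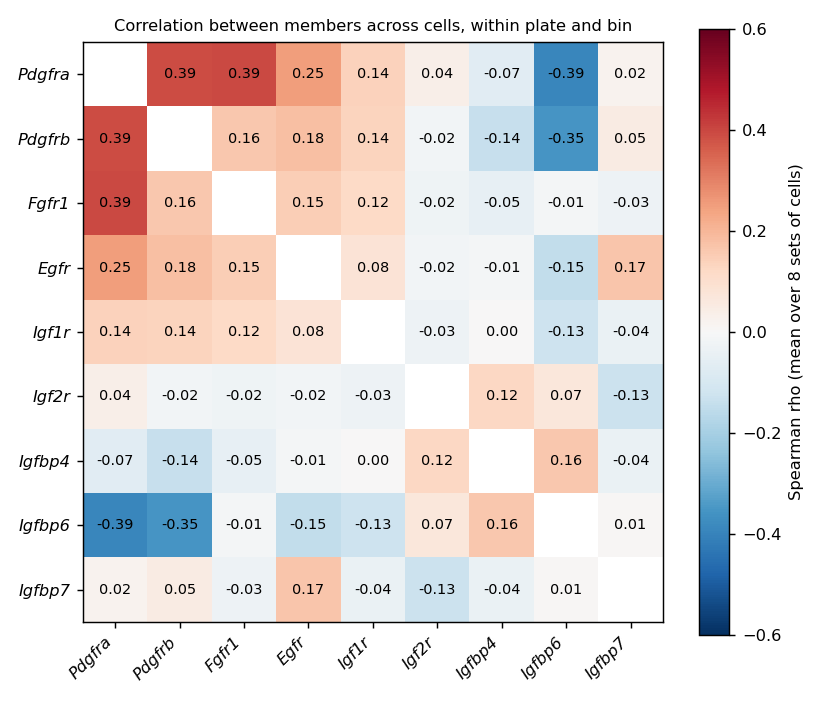
Spearman's rho between each pair of members across cells, as the mean over 8 sets of cells of 1 plate and 1 bin (colour and printed value). Pdgfra with Fgfr1 and with Pdgfrb is the most positive, at 0.39 each, and Igfbp6 with Pdgfra (-0.39) and with Pdgfrb (-0.35) the most negative.

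For each member the 3 genes with the most similar pattern over cells were read from 8599 genes that averaged a log2 CPM of 3 or more and had counts in at least 50% of cells. Those of Igfbp6 stood nearest, at 0.67 for Slurp1, 0.66 for Ly6a and 0.62 for Anxa8, where the central 95% of genes lay between -0.21 and 0.27. Ly6a encodes the surface protein Sca-1. Those of Pdgfra were Tle2, a co-repressor, at 0.54, Fam69a at 0.52 and Btg1, an antiproliferative gene, at 0.50, against a central 95% of -0.29 to 0.28. Pdgfra with Egfr, at 0.25, lay inside this range, although above the upper limit of Egfr, 0.17. Pdgfra with Fgfr1 and with Pdgfrb, at 0.39 each, lay outside it. The genes most opposite to Pdgfra, chosen after the values had been seen, were the keratin Krt14 at -0.53, Anxa8 at -0.52 and the transcription factor Klf4 at -0.50, so Anxa8 was near one end of both orders. Over the Venus bins Slurp1, Ly6a and Anxa8 rose by 0.44, 0.22 and 0.21 log2 per bin (adjusted p = 0.00827, 0.000428 and 0.0376), and Tle2, Fam69a and Btg1 fell by 0.20, 0.07 and 0.20 (adjusted p = 0.0167, 0.0318 and 0.00173).

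The genes nearest to Pdgfrb were Mmp2, a gelatinase, the growth factor Ptn and Emilin1, an elastic fibre protein, at 0.47, 0.47 and 0.46. For Igfbp7 they were Lox, which crosslinks collagen and elastin, the basement membrane collagen Col4a5 and Tspan6, at 0.46, 0.46 and 0.45. Egfr had Ldhb, the collagen Col1a2 and the non-coding RNA Dnm3os at 0.33, 0.32 and 0.29. Lox fell toward the bright bins, by 0.15 log2 per bin (adjusted p = 0.0106), where Igfbp7 rose, so likeness within a bin and trend over the bins had opposite signs for this pair.

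Fgfr1 was nearest to Ank, a pyrophosphate transporter, Rasa3, a Ras GTPase-activating protein, and Tcp11l2, at 0.48, 0.47 and 0.44. Igfbp4 had Reep5, Rpl37 and Cct5 at 0.41, 0.40 and 0.39. Igf1r had Fcgrt, Creb3l2 and Ldb2 at 0.27, 0.26 and 0.25, against a central 95% of -0.15 to 0.15. For Igf2r the nearest were Ccl2, Cks2 and H2afv at 0.18, 0.18 and 0.17, which in counts this sparse were not read further.

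The members were last set beside cell cycle and clock transcripts in the same cells. The 5 receptor kinases were lower in cells with more G2/M transcript, with a mean rho of -0.32 for Pdgfrb, -0.29 for Pdgfra and Fgfr1 and -0.23 for Egfr and Igf1r, negative in all 8 sets for each. Igfbp6 stood at 0.16, positive in 6 of 8 sets, and Igfbp7 at -0.14. With Dbp, which rises along the Venus axis, Pdgfra, Pdgfrb, Fgfr1 and Egfr stood at 0.22, 0.20, 0.19 and 0.14, positive in all 8 sets. Each value lay inside the central range, as given above, of that member's rho with 8599 genes. The upper limits of these ranges were 0.28, 0.23, 0.24 and 0.17, so the values with Dbp did not stand apart from those with other genes. Over the bins Fgfr1 and Egfr fell while Dbp rose by 0.74 log2 per bin. Recorded Venus brightness within a bin had a mean rho between -0.07 and 0.06 with 8 of the members and 0.18 with Igf2r. Igfbp7 stood at 0.11 with Nr1d1, positive in all 8 sets, at 0.02 with Dbp and at -0.01 with Tef. With Cry1 it stood at -0.15, negative in all 8 sets. All of these values of Igfbp7 lay inside its central range over genes, -0.17 to 0.20. Cry1, named after its value had been seen, rose along the Venus axis.

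**Figure D5:**
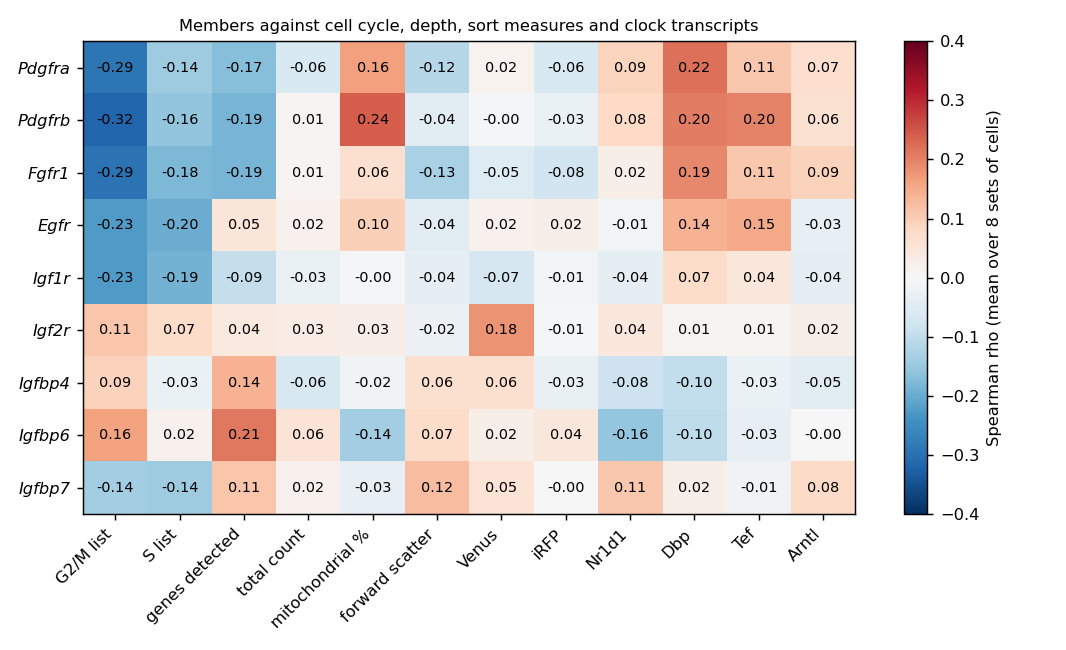
Spearman's rho of each member (rows) with summed G2/M and S phase levels, genes detected, total count, mitochondrial share, forward scatter, recorded Venus and iRFP and 4 clock transcripts (columns), as the mean over 8 sets of cells of 1 plate and 1 bin. The receptors other than Igf2r are negative with the G2/M list, between -0.32 and -0.23, and Igfbp6 is positive with it at 0.16.

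Some counts cannot be assigned to 1 gene with certainty. In the reference annotation exons of Pdgfra overlap an antisense gene, an unclassified transcript and a microRNA, those of Fgfr1 an antisense gene, and those of Igfbp7 the gene Polr2b on the opposite strand over 85 bases. Whether strand was used in counting is not given in the sources used here, so reads from bases shared with an opposite gene cannot be told apart. The largest overlap with 1 gene was 456 of 10024 exon bases for Pdgfra, 164 of 9875 for Fgfr1 and 85 of 1209 for Igfbp7.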

How the data were processed

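The deposited table holds raw counts per gene and cell, made by the authors from paired-end 75 bp full-length single-cell (FLASH-seq) reads, per the labels' protocols. The submitters' processing notes name STAR 2.7.11a, SAMtools, bedtools and HTSeq and the build GRCm39 (mm39); annotation and use of strand are not given in the sources used here. The deposited sorting record gives Venus, iRFP and scatter intensity per cell in arbitrary units. Symbols, exon lengths and overlaps came from GENCODE M21 and promoters from RefSeq, both on GRCm38; 24902 features had a symbol, and those without held 1.07% of counts. The study's 2 reporter features were kept.

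Cells with at least 1000 genes, 0.1 of the plate median total and at most 25% mitochondrial counts were kept (762 of 768). Wells held single sorted cells, per the labels' protocols, so no doublet caller was run, and no cell name was shared between plates. Counts were summed by plate and bin. A total of 18430 genes was tested with edgeR 4.0.16 (R 4.3.3; TMM, filterByExpr, quasi-likelihood, bins plus plate, 3 residual degrees of freedom) for a linear trend in log2 per bin and for any difference, with a threshold of 0.05 after Benjamini-Hochberg adjustment over all genes; all 9 members passed the low-count filter. The plate term pairs bins by the plate the labels name. CPM by bin is TMM-scaled; SEs were derived from the F statistic; trends of 1 plate used log2 CPM with a prior count of 2. Several settings of the quasi-likelihood fit were compared; the version's default is given, and its bias-adjusted form, an alternative chosen after seeing the data, called 2994 genes against 2843, the same 4 members included. On simulated counts the trend fit recovered 100 of 100 genes changed by 0.5 log2 per bin and 58 of 100 changed by 0.2, with 9 false calls among 17632 genes. The simulation gave all genes 1 common dispersion and no plate difference, and changed only genes above 8 CPM. Its shares therefore need not hold for the real genes, and Igf2r lies below that level. Use of molecular identifiers is not stated, and reads that share a PCR molecule are not independent, so intervals cover counting error only.

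Alternatives were library totals, DESeq2 1.42.0, no low-count filter, no plate term, a linear bin score, a stricter cell filter, thinning to 200000 counts, leaving out cycling cells, bins or plates. Members and all lists were chosen with earlier results of these data known. Members were all named; of each list, at most 4 called genes, those of largest trend that averaged a log2 CPM of 3 or more; and for each member the 3 most correlated genes. List genes without a row here were not analysed, and some list genes are not reported here by name.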

Additional observations from a re-analysis of the deposited data

How the results depend on the processing

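The 4 called members kept their sign under each of the 11 tested alternatives, and Fgfr1, Egfr and Igf2r were called in 7 of them and Igfbp7 in 8. Without the replicate block (no plate term) 1683 genes and 1 member, Igf2r, were called for the trend, against 2843 and 4, and 0 members against 3 for any difference (8 passed it with DESeq2, 6 with no low-count filter and 6 with thinned cells). For any difference, the share of all genes is given only for the main fit, at 8.37%. The member counts of the other settings are therefore not read further. With a linear bin score 1858 genes and 2 members were called, without bin 1 1139 genes and 2 members (Pdgfrb and Igf1r), and without bin 4 358 genes and 0 members; these last fits hold fewer sums. With bin 4 left out the trends of Pdgfra (0.045), Pdgfrb (0.0058), Igf1r (0.118), Igfbp4 (0.229) and Igfbp6 (-0.055) changed sign, as did that of Igf1r with library totals (0.00089) and without the cycling cells (0.023); none of these was called. The cause was not tested. Of all calls 44.0% were higher toward bright with TMM and 57.8% with library totals. The plates alone gave trends with the sign of the joint fit for 8 members, and Igf1r was -0.04 on plate 1 and 0.00 on plate 2. Depth limits Igf2r, with 882 counts in all.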
